A study of Mus musculus with 18 samples.

Results

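The genes described here are those with the longest exonic sequence among the genes read in mouse embryonic stem cells. A gene was taken when its exons, merged over its annotated transcripts, covered at least 15000 bases and its mean level over the 8 wild-type libraries was at least 1 CPM (the gene's read count scaled to the library total). Of 24116 genes in the table, 117 reached that length and 13113 reached that level. Of the genes that reached both, 96 were kept, and 1, Kcnq1ot1, a long noncoding RNA of an imprinted domain with 83437 exonic bases, was left out by name. The other name left out, Airn, has 2188 exonic bases in the table and would not have entered. The genes were thus selected on exonic length and on the measured wild-type level, so both are descriptions here and are not tested.

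The study asked what the chromatin remodeller Snf2h (gene Smarca5, an ATPase of the ISWI family) does for gene expression in embryonic stem cells of the 129S6/SvEvTac strain. Poly(A) RNA was sequenced from 8 wild-type libraries, 5 Snf2h ko libraries, 3 libraries of ko cells with wild-type Snf2h put back (wild-type add-back) and 2 libraries, numbered 1 and 3, of ko cells with a mutant Snf2h put back (mutant add-back). The labels name the last line both as a mutant add-back and as ATPase mutant re-expression. Both add-backs therefore sit on the ko background. All cells grew in serum with LIF. Wild-type and wild-type add-back cells grew on gelatin, whereas the ko and mutant add-back lines had mouse embryonic fibroblast feeders for at least the earliest passages after thawing, so feeder exposure and loss of active Snf2h cannot be told apart. The labels do not say how many ko or add-back clones were used.

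Very long messenger RNAs encode giant proteins: titin and nebulin of muscle, spectrin-repeat linkers such as dystonin and the nesprins, axonemal dyneins of motile cilia, ubiquitin ligases of the HECT and UBR types, and histone methyltransferases. A gene's read count grows with its transcript length, so the counts of such genes are high for the number of molecules present. A poly(A) library also reads these transcripts across the greatest distance from the 3′ end.

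Library totals ran from 15.3 to 37.0 M counts and fell into 3 ranges, called depth tiers here. The low tier (under 20 M counts) held wild-type replicates 6 to 8, ko replicates 3 to 5 and all add-backs. The middle tier (20 to 28 M counts) held wild-type replicates 1 and 2 and ko replicates 1 and 2, and the high tier held wild-type replicates 3 to 5. The tiers come from the totals and not from the labels. Smarca5 lay at 139.7 to 215.5 CPM in wild type, 8.71 to 10.1 in ko, 83.8 to 90.2 in the wild-type add-back and 48.4 and 68.6 in the mutant add-back, lowest in the ko as its label says. All 12 embryonic stem cell markers examined were at 1 CPM or more in every library. Of 22 fibroblast markers, 16 to 18 reached 1 CPM in the ko libraries, 14 and 15 in the mutant add-back, 10 to 12 in wild type and 8 or 9 in the wild-type add-back. Of the 18 fibroblast markers that could be tested, 14 rose and 3 fell in the ko by edgeR (median log2 change 1.86), and against the ko 14 fell and none rose in the wild-type add-back (median -2.22). The summed level of the 22 was 1139 to 1299 CPM in ko and 934 to 2360 CPM in wild type.

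The 96 genes lie on 19 chromosomes, with exonic lengths from 15019 bases (Gucy1a2, a guanylate cyclase subunit) to 107966 bases (Ttn, titin). The median was 17508.5 bases and 73 genes were under 20000. A merged length need not be the length of any single RNA. In the GENCODE vM21 annotation, 40 of the 96 genes had a single transcript of at least 15000 bases, and in 20 the longest transcript was under 10000. Syne1 had a transcript of 27908 bases there against 19867 merged exonic bases, so the merged lengths rest on a different annotation. The longest coding part was 10000 bases or more in 47 genes and shorter in 47, and 2 genes, Neat1 and Meg3, had none. Ttn had a transcript of 106824 bases with a coding part of 105639. Lpp, a focal adhesion protein, reached its place mainly through untranslated sequence, with a coding part of 1839 bases in a transcript of 15459. The zinc finger genes Gm14308 and 0610010B08Rik were listed at 17508 and 17509 exonic bases although their longest transcripts are 1628 and 1621 bases. They are near-identical copies whose reads could be split between them, so their values are uncertain. Syn3 (synapsin III) was listed at 18558 bases with a longest transcript of 4775.

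The thresholds cut through a continuum. Gucy1a2, Pdzd2 (15064 bases) and Med13l (15142) were just long enough, whereas Mga (14982), Psd3 (14979) and Wdfy3 (14966) fell just short. On the level side, Dnah17 (1.00 CPM) and Pclo (1.07) were just inside, and Dnah7b (0.616), Abca13 (0.549) and Lrp1b (0.483) were just outside. Wild-type levels were 100 CPM or more in 26 genes, between 10 and 100 in 50 and under 10 in 20. Per kilobase of exonic length, the most read gene was Huwe1, a HECT ubiquitin ligase, at 46.3 CPM per kilobase. Below it came Nsd1, a histone H3 lysine methyltransferase, at 25.5, Ubr4, an N-degron ubiquitin ligase, at 24.7, Mdn1, an AAA ATPase of ribosome assembly, at 19.2, and Meg3, a maternally expressed noncoding RNA, at 18.5. Near the other end was Pclo at 0.0480. From here on CPM is scaled with TMM factors (trimmed mean of M values) unless a share of counts is named.

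Summed over the 96 genes, the share of all counts differed more between libraries of a group than between wild type and ko. It was 0.843% ± 0.0524 (SD, n = 8) in wild type, 0.836% ± 0.0950 (SD, n = 5) in ko and 0.940% ± 0.0776 (SD, n = 3) in the wild-type add-back. The mutant add-back libraries held 0.576% (replicate 1) and 0.788% (replicate 3). Replicate 1 of the mutant add-back had the lowest share of the 18 libraries and wild-type add-back replicate 3, at 1.02%, the highest. Within ko, the middle-tier libraries held 0.935% and 0.937%, and the low-tier libraries 0.808%, 0.740% and 0.759%. Within wild type, the middle tier held 0.882% and 0.937% and the low tier 0.854%, 0.820% and 0.788%, so in both genotypes these tiers did not overlap. The high-tier wild-type libraries held 0.772% to 0.852% and overlapped the low tier, so the share did not rise steadily with depth.

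A gene-by-gene measure gives each gene the same weight. For each library, each gene's log2 CPM was taken relative to its wild-type mean. The median of these differences over the 96 genes was -0.66 in mutant add-back replicate 1 and -0.29 in replicate 3. In the ko the middle-tier values were 0.01 and 0.02 against -0.19, -0.32 and -0.30 in the low tier. In wild type it was 0.10 and 0.18 in the middle tier, -0.09, 0.10 and 0.04 in the high tier, and -0.04, -0.08 and -0.14 in the low tier. Wild-type add-back replicates 1 and 2 were at 0.00 and replicate 3 at 0.20. The median over all tested genes stayed between -0.01 and 0.02 in every library, so the long genes moved relative to the rest. Replicate 1 of the mutant add-back was the lowest of all 18 libraries for 55 of the 96 genes, where it was lowest for 15.4% of all genes at 1 CPM or more. Wild-type add-back replicate 3 was the highest library for 23 of the 96, against 4.66% of all such genes.

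**Figure D1:**
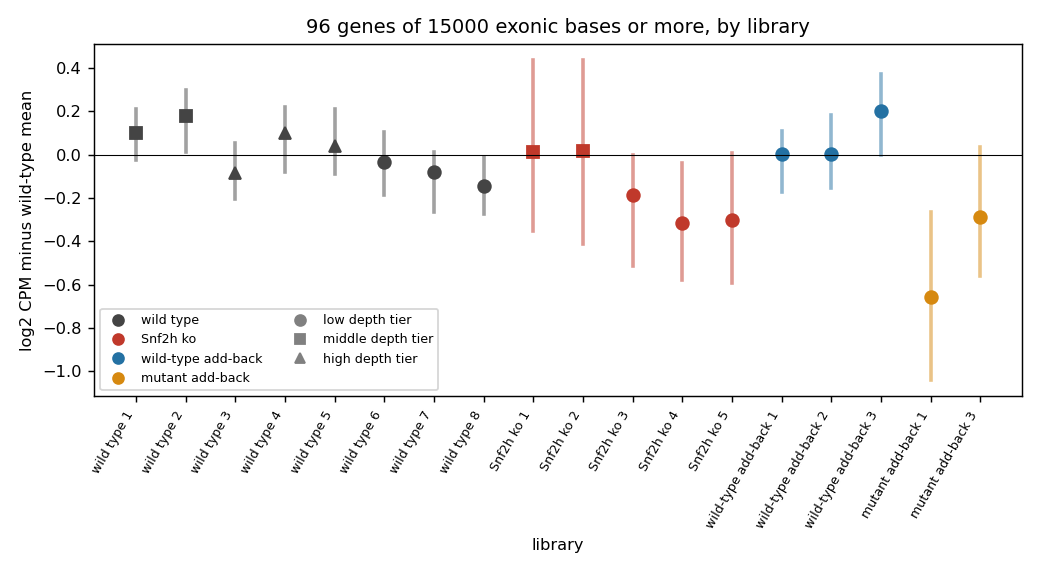
For each of the 18 libraries (x axis), the point is the median over the 96 genes of log2 CPM minus the gene's wild-type mean (y axis) and the bar spans the middle 50% of genes; colour gives the group and shape the depth tier. Mutant add-back replicate 1 lies lowest at -0.66 and the 3 low-tier ko libraries lie under the 2 middle-tier ones.

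The shift was graded by length and did not begin at 15000 bases. In mutant add-back replicate 1, the median difference from the wild-type mean was 0.48 for 736 genes under 1000 exonic bases, 0.26 for 2390 genes of 1000 to 2000 and 0.04 for 4749 genes of 2000 to 4000. It then turned negative, down to -0.66 for the 96. In replicate 3 the same ends were 0.22 and -0.29. Over the 13017 tested genes at 1 CPM or more that are not among the 96, log2 level against the wild-type mean changed by -0.217 per doubling of exonic length in replicate 1 and by -0.0918 in replicate 3. The other 16 libraries had slopes between -0.0662 and 0.0390. In the ko the middle-tier slopes were 0.0390 and 0.0160 and the low-tier slopes -0.0373, -0.0543 and -0.0653, so the 2 tiers had opposite signs inside the ko. In wild type the low tier had -0.0114, -0.0417 and -0.0464 and the middle tier 0.0207 and 0.0173. The sign also differed inside a tier: the high-tier wild-type slopes were -0.0071, 0.0369 and 0.0318, and the wild-type add-back slopes, all low tier, were -0.0401, -0.0662 and 0.0178. These slopes are descriptions over genes, which are not independent replicates. RNA quality was not recorded in the sources used here, and its part in the gradient was not tested.

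**Figure D2:**
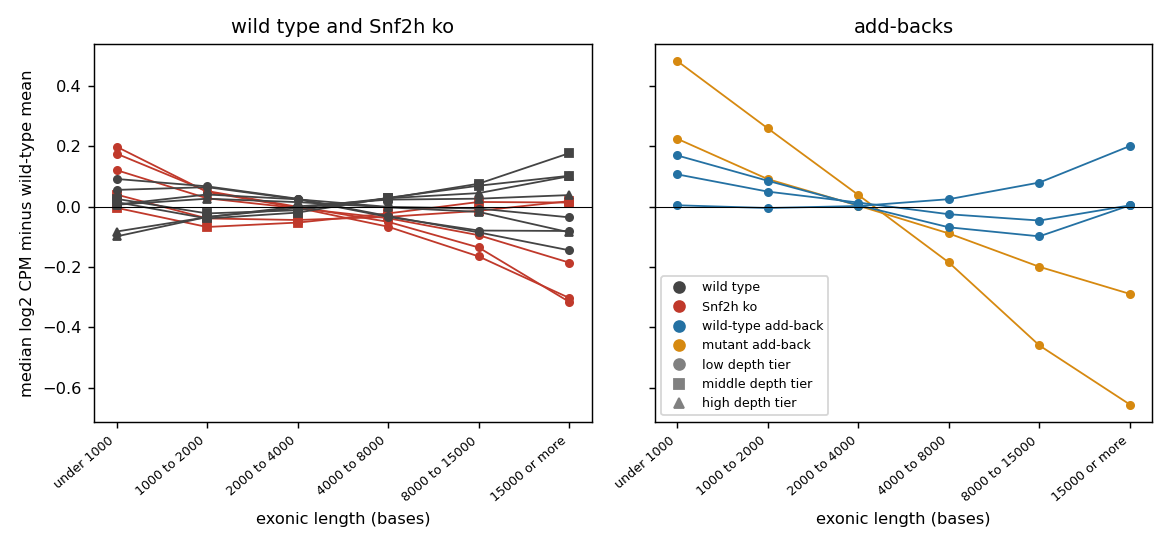
Each line is a library: the median over genes of log2 CPM minus the wild-type mean (y axis) for 6 bins of exonic length (x axis), with wild type and ko on the left and the add-backs on the right. The line of mutant add-back replicate 1 falls from 0.48 to -0.66, and the ko lines separate by depth tier.

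The 2 mutant add-back libraries differed from each other. Replicate 1 was below replicate 3 for 88 of the 96 genes, against 49.7% of all genes at 1 CPM or more. Set against the 3 ko libraries of the same low tier, replicate 1 was below all of them for 76 of the 96 genes (40.6% of all genes), and replicate 3 for 38 (36.8%). Replicate 1 was above all of them for 9 (40.8%) and replicate 3 for 32 (34.0%). Replicate 3 thus lay on both sides in similar numbers. Huwe1 shows the low level of replicate 1 at high depth, with 458 and 675 CPM in mutant add-back replicates 1 and 3. It was at 737, 680 and 690 in the low-tier ko libraries, and 808 and 806 in the middle-tier ones. Vps13b, which encodes a lipid transfer protein of the Golgi, was at 36.1 and 54.1 CPM against 66.7, 62.2 and 63.5 in low-tier ko. Dst (dystonin, a linker of cytoskeletal filaments) was at 208 and 369 CPM against 368, 303 and 329. For Huwe1 and Vps13b both mutant libraries lay below the low-tier ko libraries, narrowly so for Huwe1 in replicate 3, while for Dst only replicate 1 did.

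The long genes called between the low and middle wild-type tiers were mostly lower in the low tier. Between the low and middle wild-type tiers, 40 of the 96 genes were lower in the low tier and 6 higher by edgeR's quasi-likelihood test at a Benjamini-Hochberg adjusted p under 0.05 (a call, from here on), where 21.6% and 21.9% of the 14901 genes tested were. The median log2 difference of the 96 was -0.21 against -0.01 over all tested genes. By plain order, all 3 low-tier libraries lay below both middle-tier libraries for 55 of the 96 genes (37.2% of all genes at 1 CPM or more) and above them for 14 (38.4%), so the direction was uneven while the share that separated was not above that of all genes. Since the tiers were drawn from the library totals and contain few libraries, this says how the libraries differ and not which condition made them differ.

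Some genes differed widely between the wild-type tiers. Ank3 (ankyrin-G, an anchor of membrane proteins to the spectrin skeleton) was at 24.8 and 26.7 CPM in middle-tier and 13.1, 10.003 and 11.7 in low-tier libraries. Its log2 difference was -1.14 ± 0.15 (SE; adjusted p = 4.3e-06, edgeR). Fras1, an extracellular matrix protein of epithelia, was at 4.83 and 5.28 CPM in the middle tier against 1.53, 2.20 and 2.08. In the other direction, Lrp2 (megalin, an endocytic receptor of visceral endoderm) was at 91.5 and 99.9 CPM in middle-tier and at 362, 320 and 310 in low-tier libraries, a log2 difference of 1.79 ± 0.11 (SE; adjusted p = 5.1e-10, edgeR). For all 3 genes the tiers did not overlap.

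In ko against wild type, long genes changed in both directions. Against wild type, 37 of the 96 genes fell and 18 rose in the ko (edgeR's quasi-likelihood test, Benjamini-Hochberg adjusted p under 0.05), where 28.2% of all 14901 tested genes fell and 26.8% rose. The median log2 change was -0.17, against -0.01 over all tested genes. With each library's length trend removed (described further on), 29 fell and 27 rose, with a median of -0.04, and shares of all tested genes are not given for that fit. A gene enters the 96 through its wild-type level, so a gene near 1 CPM that was higher in the ko could not enter: with the level taken over all 18 libraries instead, 91 genes remained, of which 33 fell and 18 rose. All 5 ko libraries lay below all 8 wild-type libraries for 21 of the 96 genes (16.3% of genes at 1 CPM or more) and above for 10 (13.5%). Of the 96, 9 fell and 4 rose at least 2-fold with a call, against 8.13% and 7.66% of all tested genes. Ryr3, Pclo and Syn3 were among these falls and near 1 CPM in wild type, so selection on that level favoured them.

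The falls of over 2 on the log2 scale were those of Neb, Hydin, Dnah10, Ryr3, Ttn and Pclo. Hydin, a protein of the central pair apparatus of motile cilia, lay at 8.58 to 18.1 CPM in wild type (median 10.3). It was at 1.06, 1.00, 1.41, 1.11 and 1.05 CPM in the ko, 5.36, 4.61 and 6.33 in the wild-type add-back, and 0.919 and 0.967 in the mutant add-back. Every ko and mutant add-back library lay under every other library, and the wild-type add-back lay between. The fall in the ko was -3.32 ± 0.19 on the log2 scale (SE; adjusted p = 1.1e-10, edgeR). Dnah10, a heavy chain of the inner arm dynein of motile cilia, was at 6.16 to 9.56 CPM in wild type (median 7.69), and at 1.30, 0.928, 0.903, 0.953 and 0.697 in the ko. Its add-back values were 3.83, 3.01 and 5.12 CPM with wild-type Snf2h and 0.632 and 1.42 with the mutant. The groups fell in the same order, with a ko change of -2.99 ± 0.20 (SE; adjusted p = 8.1e-10, edgeR). Hydin lies at chr8:110266968-110610253 and Dnah10 at chr5:124725085-124834308 (GRCm38, RefSeq).

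Among the muscle proteins, Ttn, the spring of the sarcomere at chr2:76703980-76982557, lay at 6.29 to 15.1 CPM in wild type (median 10.9). It was at 1.73, 1.39, 3.10, 2.49 and 2.32 CPM in the ko, 9.83, 18.0 and 11.9 in the wild-type add-back and 1.26 and 2.56 in the mutant add-back. Every ko and mutant add-back library lay below every wild-type and wild-type add-back library. These sets also differed in feeder exposure. The ko change was -2.25 ± 0.27 on the log2 scale (SE; adjusted p = 1.3e-06, edgeR). Neb (nebulin, the ruler of the thin filament) fell by 3.48 ± 0.40 on the log2 scale (SE; adjusted p = 9.5e-07, edgeR), from a wild-type range of 0.976 to 4.29 CPM to a ko range of 0.159 to 0.349. Ryr3, a ryanodine receptor that releases calcium, changed by -2.72 on the log2 scale. Its wild-type range was 0.710 to 1.89 CPM and its ko range 0.106 to 0.290. Neb and Ryr3 rest on few reads in the ko, and like Pclo and Syn3 they were near the level threshold in wild type, so that their entry depended on the group where they are high. Ryr3, Pclo and Syn3 were nearer that threshold than Neb, so their changes are descriptions.

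The promoters of 5 genes with changes of over 2-fold in the ko, chosen after their values were seen, are shown so that their sequence can be read beside these values. They are the 250 bases before the annotated start on the gene's strand, from the RefSeq promoter table (GRCm38.p6), with matches to 4 short motifs in capitals on either strand. The motifs were the TATA box TATAAA, the letters CCAAT bound by NF-Y, the Sp1-type GC box GGGCGG and the letters GTTGCC (part of the X box that RFX factors of ciliary genes recognise). Hydin, Dnah10 and Ttn fell in the ko, and Cdh23 and Tenm4 rose. The windows are chr8:110266727-110266976 (plus strand) for Hydin, chr5:124724835-124725084 (plus) for Dnah10, chr2:76982548-76982797 (minus) for Ttn, chr10:60696491-60696740 (minus) for Cdh23 and chr7:96170994-96171243 (plus) for Tenm4.
Hydin: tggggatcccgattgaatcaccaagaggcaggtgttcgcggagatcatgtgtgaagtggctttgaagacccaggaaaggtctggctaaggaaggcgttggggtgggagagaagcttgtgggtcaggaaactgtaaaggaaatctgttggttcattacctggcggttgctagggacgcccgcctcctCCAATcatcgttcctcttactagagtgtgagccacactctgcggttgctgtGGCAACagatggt
Dnah10: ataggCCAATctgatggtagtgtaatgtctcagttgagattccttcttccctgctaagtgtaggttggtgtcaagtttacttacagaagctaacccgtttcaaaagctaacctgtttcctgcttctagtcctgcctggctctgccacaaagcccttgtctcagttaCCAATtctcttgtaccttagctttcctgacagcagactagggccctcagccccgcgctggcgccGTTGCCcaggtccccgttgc
Ttn: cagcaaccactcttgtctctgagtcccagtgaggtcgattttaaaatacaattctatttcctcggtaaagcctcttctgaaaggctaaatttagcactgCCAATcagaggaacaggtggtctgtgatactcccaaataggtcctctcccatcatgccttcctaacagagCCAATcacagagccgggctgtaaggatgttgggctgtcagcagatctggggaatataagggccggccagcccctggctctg
Cdh23: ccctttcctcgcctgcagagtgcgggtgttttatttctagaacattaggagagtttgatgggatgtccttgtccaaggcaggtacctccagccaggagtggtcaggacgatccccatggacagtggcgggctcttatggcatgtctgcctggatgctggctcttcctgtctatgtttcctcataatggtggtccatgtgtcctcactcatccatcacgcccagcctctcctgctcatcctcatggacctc
Tenm4: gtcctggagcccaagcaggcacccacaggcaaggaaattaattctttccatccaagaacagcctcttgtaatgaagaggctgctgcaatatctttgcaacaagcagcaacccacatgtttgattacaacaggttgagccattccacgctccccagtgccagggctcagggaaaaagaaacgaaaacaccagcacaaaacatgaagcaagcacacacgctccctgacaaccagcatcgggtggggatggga
Hydin and Dnah10 each held GTTGCC and CCAAT, Ttn held CCAAT, and the windows of Cdh23 and Tenm4 held none of the 4 motifs. Over all 27025 promoters in that table, 10.5% held GTTGCC, 34.5% CCAAT, 33.0% GGGCGG and 13% TATAAA. A match is a description of the letters and not a binding site.

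The other cytoskeletal giants moved less and in both directions. Of the 11 members of the list of cytoskeletal and crosslinking giants, 5 fell and 2 rose in the ko, against 28.2% and 26.8% of all tested genes. The falls included Ttn, Neb, Dmd (dystrophin) and Syne2 (nesprin-2, which links the nucleus to the cytoskeleton). Dmd fell by 0.69 ± 0.12 on the log2 scale (SE; adjusted p = 8.9e-05, edgeR). The rises were Ahnak, a giant scaffold under the plasma membrane (0.69 ± 0.18, SE; adjusted p = 0.0032, edgeR), and Plec (plectin, a linker of intermediate filaments; 0.49 ± 0.12, SE; adjusted p = 0.0017, edgeR). Ahnak was at 208 and 219 CPM in the middle-tier ko libraries and 156, 131 and 139 in the low-tier ones, and wild type ran from 70.6 to 140, so its groups overlapped. Dst (0.25) and Macf1 (-0.06, an actin and microtubule crosslinker) had no call, though with the length trend removed Dst was called higher at 0.44 (adjusted p = 0.0011, edgeR). Of the 19 listed cytoskeletal genes that are shorter or less expressed, 5 rose and 7 fell, with a median of -0.02.

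Among the microtubule motors and centrosome proteins, 3 of 5 listed members fell and 1 rose, against 28.2% and 26.8% of all tested genes. With Dnah10, the falls were Dnah8, an outer arm dynein heavy chain (-1.18 ± 0.36, SE; adjusted p = 0.010, edgeR), and Dync2h1, the motor of retrograde transport in cilia (-0.50). The rise was Kif1b, a kinesin of organelle transport (0.41). Dnah8 spread widely in wild type, from 17.7 to 81.2 CPM, and its ko libraries at 12.4 to 25.7 overlapped that range. Within the tiers it was not called, with a middle-tier change of -1.11 (adjusted p = 0.057, edgeR) and a low-tier change of -0.59 (adjusted p = 0.27, edgeR). Dnah17, an outer arm dynein heavy chain outside the list, rose by 0.57 ± 0.19 (SE; adjusted p = 0.015, edgeR) from about 1 CPM, so the axonemal dyneins did not move as a block. Without ko replicate 4 its call was lost (0.41, adjusted p = 0.066, edgeR).

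Of the 6 listed ubiquitin ligases, which include the most read gene per kilobase, 1 fell and 1 rose, against 28.2% and 26.8% of all tested genes. Huwe1 fell by 0.31 ± 0.09 on the log2 scale (SE; adjusted p = 0.0080, edgeR). Herc2, a HECT ligase of the DNA damage response, rose by 0.39, and Ubr4, Birc6, Herc1 and Mycbp2 had no call at -0.12, -0.19, -0.08 and 0.08. Both listed members for RNA surveillance and ribosome assembly fell. Mdn1 was at 293 to 519 CPM in wild type (median 443), and at 262, 267, 280, 256 and 273 in the ko, below every wild-type library. Its change was -0.63 ± 0.14 (SE; adjusted p = 0.00068, edgeR). Smg1, a kinase of nonsense-mediated decay, fell by 0.37 ± 0.13 (SE; adjusted p = 0.024, edgeR), though with library size alone as the scale its adjusted p was 0.067, and without ko replicate 3, 4 or 5 its change was -0.34, -0.30 or -0.30 and not called (adjusted p of 0.065, 0.085 and 0.085, edgeR).

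Of 7 chromatin and transcription regulators, 3 fell and none rose, against 28.2% and 26.8% of all tested genes. Nsd1 was at 354 to 420 CPM in wild type and 340, 334, 306, 284 and 286 in the ko, with no overlap (-0.32 ± 0.08, SE; adjusted p = 0.0022, edgeR). Kmt2c, a methyltransferase of enhancer histones, fell by 0.33, a call lost without ko replicate 4 (-0.27) or 5 (-0.28). Kmt2a, the MLL1 methyltransferase, fell by 0.21 ± 0.08 (SE; adjusted p = 0.041, edgeR). That call was lost with DESeq2 (adjusted p = 0.055) with the length trend removed (-0.09), and without any of 9 libraries in turn (-0.21 to -0.18): wild-type replicates 1, 2, 5, 6 and 7 and ko replicates 1, 2, 4 and 5. Kmt2d (-0.04), Med13l (-0.03), Chd6 (-0.16) and Zfhx3 (-0.49) had no call, though Zfhx3 was called without ko replicate 1 (-0.66) or 2 (-0.77) and with the length trend removed (-0.45). Of 45 listed chromatin regulators that are not among the 96, 25 fell and 1 rose, with a median of -0.29. Tnrc6b, a GW182 protein of microRNA silencing, fell by 0.46.

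Of 8 listed vesicle traffic and exchange factor genes, 2 rose and none fell, against 26.8% and 28.2% of all tested genes: Dennd4a, a RAB exchange factor (0.64 ± 0.19, SE; adjusted p = 0.0073, edgeR), and Kalrn (kalirin, 0.25). The Kalrn call was lost without ko replicate 1 (0.20) or 2 (0.18), or without wild-type replicate 1, 2, 3, 6 or 8 (0.22 to 0.24). The VPS13 proteins Vps13a, Vps13b, Vps13c and Vps13d lay between -0.17 and 0.14, without a call; with the length trend removed, Vps13a was called at 0.25. Of the 5 receptors and matrix proteins, Lrp1, an endocytic receptor for lipoproteins and proteases, rose by 0.95 ± 0.20 (SE; adjusted p = 0.00071, edgeR). It was at 190, 186, 138, 124 and 133 CPM in the ko and 47.4 to 115 in wild type (median 78.3), without overlap. Of the ryanodine receptors, Ryr3 fell, Ryr2 rose in the pooled comparison (0.96) and Ryr1 was not called (-0.26). Ryr1 was called without ko replicate 1 (-0.34) or 2 (-0.36) or wild-type replicate 8 (-0.29).

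The largest rise was that of Neat1, the noncoding RNA that builds paraspeckles, at chr19:5824708-5845480. It lay at 39.0 to 90.1 CPM in wild type (median 56.8). In the ko it was at 207, 216, 149, 129 and 138 CPM, in the wild-type add-back at 77.0, 74.2 and 74.1, and in the mutant add-back at 166 and 170. Libraries without active Snf2h were all above those with it, and the ko change was 1.49 ± 0.19 on the log2 scale (SE; adjusted p = 2.3e-06, edgeR). Meg3, the other noncoding gene, was not called at -0.22. Neat1 was high in the mutant add-back libraries, where most of the 96 genes were low.

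Among the 46 genes in no list, 21 fell and 9 rose, against 28.2% and 26.8% of all tested genes. Tenm4, a teneurin of cell adhesion, rose by 1.25 ± 0.14 on the log2 scale (SE; adjusted p = 4.0e-07, edgeR), from 31.6 to 48.0 CPM in wild type (median 43.2) to 73.3, 70.0, 121, 114 and 114 in the ko. Cdh23, a cadherin of the hair bundle in the inner ear, rose by 1.21 ± 0.13 (SE; adjusted p = 3.4e-07, edgeR), and its wild-type (2.50 to 3.51 CPM) and ko (5.40 to 7.50) ranges did not overlap. Zan (zonadhesin, a sperm protein that binds the egg coat) rose by 1.34 ± 0.18 (SE; adjusted p = 5.6e-06, edgeR), from 1.31 to 2.50 CPM to 3.62 to 5.98. Etl4 rose by 0.77. Downward, Bsn (bassoon), a scaffold of the presynaptic active zone, fell by 0.89. Pclo (piccolo), another such scaffold, changed by -2.14, but it entered through its wild-type level of 1.07 CPM, so that value is a description. Dido1, a chromatin reader with a PHD finger, fell by 0.74. Cell-type markers moved beside these changes. Of 18 tested fibroblast markers, 14 rose in the ko, as given above, and their part in the rises of long genes was not tested.

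**Figure D3:**
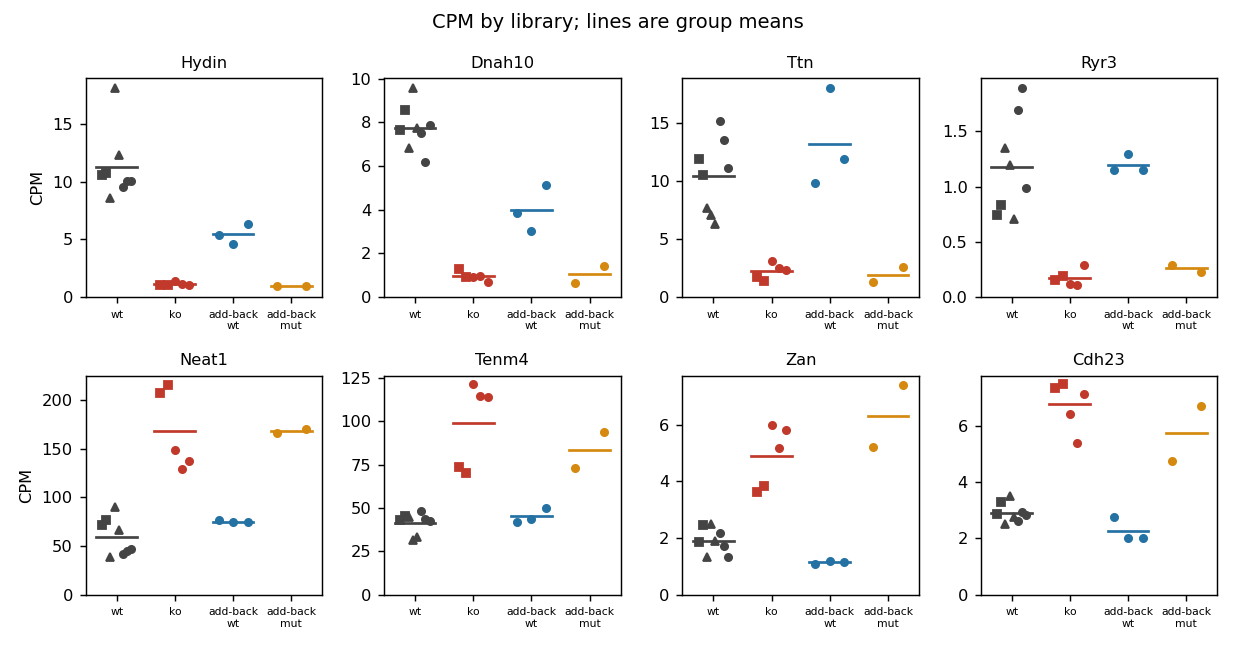
CPM (y axis, linear from 0, a separate scale in each panel) of 8 genes in every library of the 4 groups (x axis); lines are group means, circles low, squares middle and triangles high depth tier. Hydin, Dnah10, Ttn and Ryr3 are low, and Neat1, Tenm4, Zan and Cdh23 high, in both groups without active Snf2h.

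Taken within a depth tier, the ko effect had similar counts in both. In the middle tier 25 of the 96 genes rose and 34 fell (29.9% and 31.9% of all tested genes), with a median of -0.20. In the low tier 18 rose and 41 fell (29.3% and 30.8%), with a median of -0.19. Called in both tiers were 15 rises and 28 falls. The share of all tested genes called in both tiers was not counted, so these numbers have no background to be read against. Changes of at least 2-fold in both tiers were the 2 rises of Neat1 and Cdh23 and falls that included those of Ttn, Neb, Pclo, Syn3, Hydin, Ryr3 and Dnah10. Selection on the wild-type level favoured the falls of Pclo, Syn3 and Ryr3, as given above. The difference between the tiers, tested as such in edgeR, was called for 7 genes with a higher and 13 with a lower ko effect in the low tier, where 13.6% and 13.2% of all tested genes were.

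Lrp2 had the most different ko effect between the tiers. It was at 270 and 294 CPM in the middle-tier ko libraries against 91.5 and 99.9 in the matching wild type, and at 120, 109 and 109 in the low-tier ko libraries against 362, 320 and 310. The middle-tier ko effect was therefore 1.56 ± 0.12 and that of the low tier -1.56 ± 0.10, and the difference was -3.12 ± 0.16 (SE; adjusted p = 1.1e-11, edgeR). The summed level of 16 extraembryonic endoderm markers moved with it. It was 2551 and 2674 CPM in middle-tier wild type, 13330 and 14472 in middle-tier ko, 5204 to 5276 in low-tier wild type and 3807 to 3937 in low-tier ko. The part of such cells in the Lrp2 values was not tested, and fewer cells of a type and less RNA per cell cannot be told apart in bulk samples.

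Other genes changed in a single tier. Ryr2 was at 12.4 and 13.6 CPM in the middle-tier ko libraries and 3.61, 3.39 and 4.42 in the low tier, where wild type ran from 3.24 to 4.57 over all tiers, so its pooled rise rests on ko replicates 1 and 2. Without ko replicate 2 it was 0.63 (adjusted p = 0.057, edgeR). Lpp was likewise at 72.3 and 71.1 CPM in the middle-tier ko against 30.3, 30.1 and 29.6, within the wild-type range of 21.5 to 35.6. Its pooled call was lost without ko replicate 1 (0.36) or 2 (0.37) or wild-type replicate 3 (0.50) or 8 (0.54). Zfhx3, a homeodomain and zinc finger factor, was lower only in the low tier, at 7.51, 5.82 and 7.32 CPM against 16.3 and 19.4 in the middle-tier ko and 13.7 to 18.9 in wild type. The tests of the difference gave -1.76 ± 0.26 for Ryr2, -1.11 ± 0.29 for Lpp and -1.61 ± 0.20 for Zfhx3 (SE; adjusted p of 3.2e-05, 0.0089 and 4.3e-06, edgeR). Itsn1 (intersectin, an endocytic scaffold) had a lower call in the middle tier (-0.30) and a higher call in the low tier (0.32).

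**Figure D4:**
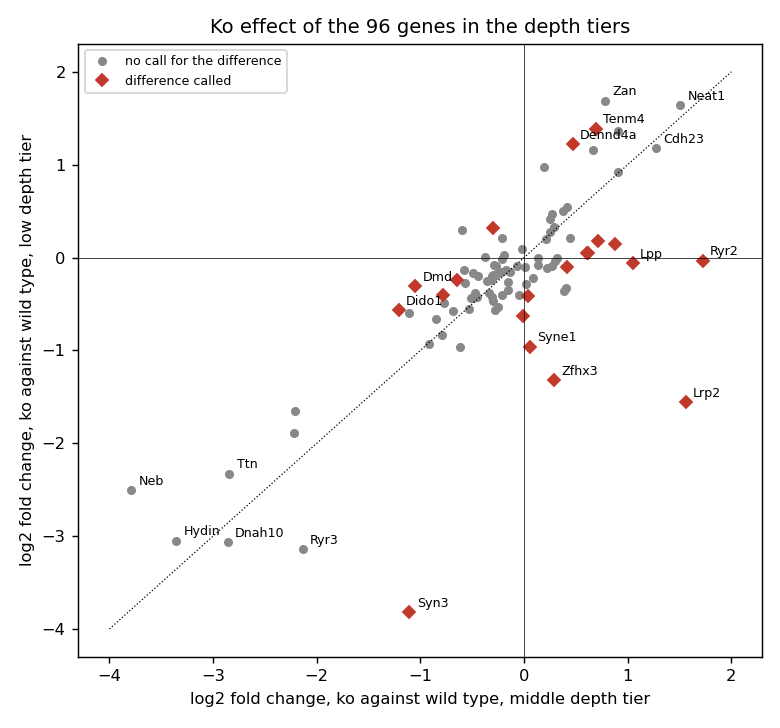
Log2 fold change of ko against wild type in the middle tier (x axis) and the low tier (y axis) for the 96 genes; the dotted line marks equal values and red diamonds the 20 genes with a called difference. Lrp2 lies at 1.56 and -1.56, and Neb, Hydin, Dnah10 and Ttn are low in both.

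With wild-type Snf2h put back, more long genes rose than fell relative to the ko. Of the 96, 35 rose and 14 fell (edgeR, adjusted p under 0.05), where 22.5% and 22.4% of all tested genes did, and the median log2 change was 0.25 against -0.01. With each library's length trend removed, some higher calls were lost, such as Dmd (0.43, adjusted p = 0.079, edgeR). Some lower calls were gained, such as Ryr1 (-0.41, adjusted p = 0.0027, edgeR). Ttn (1.85), Hydin (2.16) and Dnah10 (1.96) stayed called. This comparison shares the ko libraries with the one against wild type, so values are set side by side and no overlap is counted. Ttn changed by -2.25 in ko against wild type and by 2.60 ± 0.31 in the add-back against ko (SE; adjusted p = 2.6e-06, edgeR). For Hydin the values were -3.32 and 2.27 ± 0.22, and for Dnah10 -2.99 and 2.04 ± 0.24. Neat1 had 1.49 and -1.16 ± 0.25, and Zan 1.34 and -2.10 ± 0.27. The Hydin add-back libraries, at 4.61 to 6.33 CPM, stayed under all wild-type libraries. Ttn, at 9.83 to 18.0 CPM, overlapped the wild-type range of 6.29 to 15.1 and reached above it. Mdn1 was at 536, 602 and 680 CPM in the wild-type add-back, all above the highest wild-type library at 519.

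Among the lists, the wild-type add-back was higher than the ko for 4 of 7 chromatin regulators, 3 of 6 ubiquitin ligases and both of Mdn1 and Smg1, with no falls. Of the 8 vesicle genes none rose and 2 fell, Dennd4a (-0.67) and Kalrn (-0.37). Of all tested genes, 22.5% rose and 22.4% fell. Ahnak had no call, at -0.01 ± 0.23 (SE; adjusted p = 0.98, edgeR): its add-back libraries at 141, 169 and 198 CPM lay within the ko range of 131 to 219. The number of genes above the ko depended on which ko libraries were used. Against the 3 ko libraries of the low tier alone, 54 of the 96 were higher and 15 lower. The shares of all tested genes in that comparison are not given here. Without wild-type add-back replicate 2, 9 were lower.

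The mutant add-back had no call against the ko for any of the 96 genes in the edgeR fit (0 were higher, 0 lower, against 0.114% and 0.208% of all tested genes). At an unadjusted p under 0.05, 30 of the 96 were lower and 1 higher, against 8.64% and 6.70% of all tested genes, and DESeq2 called 5 lower. The median log2 change was -0.29 against -0.01 over all tested genes. By length bin the medians ran 0.25, 0.17, 0.03, -0.12 and -0.27 from the shortest genes to those of 8000 to 15000 bases, so the 96 continued a gradient. The ko libraries on the other side of this comparison span both tiers. Against the low-tier ko alone, 14 were lower and 1 higher. Shares of all tested genes are not given for this count or for that of DESeq2, so neither has a background to be read against. Hydin (-0.25), Dnah10 (0.09), Ttn (-0.19), Neb (0.05) and Neat1 (0.00) had no call.

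The mutant and wild-type add-backs differed widely. Of the 96, 50 were lower with mutant Snf2h and 5 higher (18.6% and 18.4% of all tested genes), and the median was -0.59 against 0.01. The median over genes of 8000 to 15000 bases was -0.31 and that under 1000 bases 0.25. The 5 higher genes were Zan (2.47 ± 0.31, SE; adjusted p = 8.9e-06, edgeR), Cdh23 (1.34), Neat1 (1.16), Tenm4 (0.88) and Etl4 (0.50). The lower genes held 5 of 6 ubiquitin ligases, 5 of 7 chromatin regulators, 4 of 5 motors and centrosome proteins and 6 of 11 cytoskeletal giants. The count rests on mutant add-back replicate 1: without it 24 were lower, and without replicate 3 49 were. In plain order, both mutant libraries lay below all 3 wild-type add-back libraries for 65 of the 96 (38.2% of genes at 1 CPM or more) and above for 13 (35.5%).

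Named lower genes include genes with and without a ko effect. Syn3 was at 0 and 0.114 CPM in mutant add-back replicates 1 and 3 against 0.639, 1.05 and 1.01 in the wild-type add-back. These rest on a few reads, so no fold is given. Reln (reelin, an extracellular guide of migrating neurons) had no call in the ko (-0.42) and was at 0.345 and 0.512 CPM in the mutant against 1.09, 1.23 and 2.09 in the wild-type add-back, a change of -1.76 ± 0.56 (SE; adjusted p = 0.020, edgeR). Vps13b, also without a ko call, changed by -0.85 ± 0.21 (SE; adjusted p = 0.0047, edgeR). For both, the add-back groups did not overlap.

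To set the common shift apart from gene-specific change, a length trend was fitted in each library over the genes outside the 96 and removed. In ko against wild type, 27 of the 96 were then higher and 29 lower, and 18 of the 27 and 28 of the 29 had the same call before. The median moved from -0.17 to -0.04. Hydin (-3.20), Dnah10 (-2.90), Neb (-3.34) and Ttn (-1.78) stayed called, as did Neat1 (1.63), Tenm4 (1.42) and Zan (1.51). In mutant against wild-type add-back, the counts went from 5 higher and 50 lower to 19 higher and 17 lower, and the median from -0.59 to -0.07. Huwe1 went from -0.92 ± 0.15 to -0.39 and kept its call, whereas Nsd1 went from -0.70 to -0.28 (adjusted p = 0.057, edgeR) and Ttn from -2.79 to -1.47 (adjusted p = 0.052, edgeR). Hydin (-2.02), Dnah10 (-1.52) and Neb (-2.35) kept theirs. Between the wild-type tiers, 6 higher and 40 lower became 24 and 19. How many of all tested genes were called with the trend removed is not given here. These counts therefore have no background to be read against. The genes outside the 96 include Kcnq1ot1, with 83437 exonic bases, against 107966 for Ttn. At such lengths the trend rests on few genes, so the corrected values of Ttn are uncertain.

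**Figure D5:**
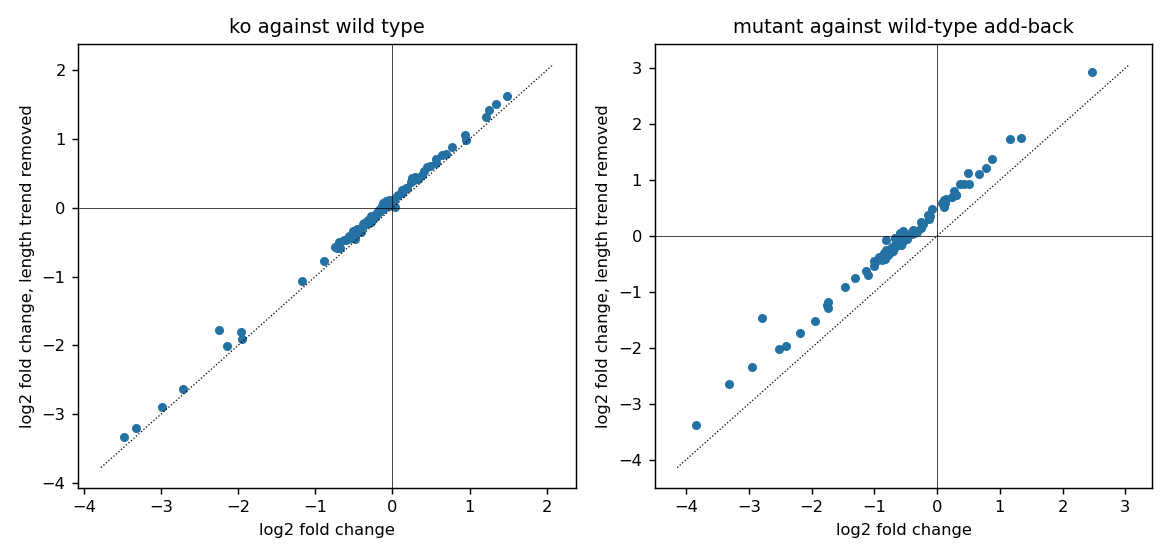
Log2 fold changes of the 96 genes as fitted (x axis) and with each library's length trend removed (y axis), for ko against wild type (left) and mutant against wild-type add-back (right); dotted lines mark equal values. The points sit a little above the line on the left (median -0.17 to -0.04) and further above it on the right (median -0.59 to -0.07).

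The shift was also read by kind of length. This split was made after the values were seen and has no test. For the 47 genes with a coding part of 10000 bases or more, the median of mutant against wild-type add-back was -0.78, with 31 lower and 2 higher. For the 47 with a shorter coding part it was -0.39, with 18 lower and 2 higher. In ko against wild type the medians were -0.23 and -0.10. By longest transcript, the 40 genes of at least 15000 bases had a median of -0.67, the 36 of 10000 to 15000 bases -0.52 and the 20 under 10000 bases -0.42 in mutant against wild-type add-back. Between the wild-type tiers the coding split gave -0.21 in both classes.

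The genes shared promoter features with other expressed genes. Of the 96, 80 had an entry in the RefSeq promoter table, and the 250 bases before their starts held a median of 17.5 CpG sites, against 16 over the tested genes at 1 CPM or more and 6 over all promoters of the table. GGGCGG was in 62.5% of the 80, 60.8% of expressed genes and 33.0% of all promoters. CCAAT was in 37.5%, 37.1% and 34.5%, TATAAA in 7.5%, 6.07% and 13%, and GTTGCC in 11.2%, 10.7% and 10.5%. The long genes were thus close to other expressed genes on each of these counts.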

How the data were processed

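The authors deposited a table of read counts per gene for 18 libraries, with a gene symbol, an Entrez identifier and an exonic width in bases. Per the submitters' processing notes, bcl2fastq 2.17 and STAR were used with the mm10 (GRCm38) genome. Per the labels, RNA was poly(A)-selected and the kit stranded. Which counter, annotation and strand option made the counts is not given in the sources used here. Library totals ran from 15.3 to 37.0 M counts, which sets the counting precision.

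Genes were filtered with filterByExpr (minimum count 10) and TMM-scaled. They were tested with edgeR 4.0.16 (quasi-likelihood, R 4.3.3) over 14901 genes, in a fit on the 4 groups and in a fit on groups split by depth tier, with Benjamini-Hochberg adjustment at 0.05. Standard errors are the log2 fold change over the root of F. Log2 CPM used a prior count of 2, and length slopes a pseudocount of 0.1. The procedure was tested on simulated data. Alternatives were DESeq2 1.42.0, other scalings and filters, a replicate block, a per-library length trend removed, other thresholds and leaving out libraries.

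The members, lists and tests were chosen with earlier results of these data known. Genes named are the 10 with the largest called rises and falls in the ko, the 6 with the largest calls each way in the add-back comparisons, those with the largest tier differences, the longest, the most read per kilobase, and examples from each role list; others that are named were chosen after their values were seen. The labels speak of biological replicates but not of separate cultures, so p-values measure the spread between these libraries. Transcript and coding lengths came from GENCODE vM21, and gene coordinates and promoters from RefSeq, all on GRCm38. Some genes that the naming rule would name are not reported here.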

Additional observations from a re-analysis of the deposited data

Results flagged for a closer look

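In 4 of 110 groups of libraries tested (the wild-type and ko libraries of the genes examined), a single library lay far from the others of its group by Dixon's criterion, where chance gives about 1 in 20. Hydin was at 18.1 CPM in wild-type replicate 4, and the nearest wild-type library was at 12.3. Hydin was also at 1.41 CPM in ko replicate 3, with the nearest ko library at 1.11. Pclo was at 0.354 CPM in ko replicate 1, with the nearest at 0.232, and Syn3 was at 1.14 CPM in the same library, with the nearest at 0.271. The Pclo and Syn3 values rest on few reads.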

How the results depend on the processing

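Counts of called genes are given as higher and lower. For fits other than the main one, the shares of all tested genes are not given here. With a minimum of 20000 exonic bases (23 genes) they were 3 and 10 in ko against wild type, 10 and 3 in wild-type add-back against ko, 1 and 15 in mutant against wild-type add-back, 5 and 9 in the middle tier, 2 and 12 in the low tier, 1 and 2 for the difference between tiers, and 0 and 12 between the wild-type tiers; fewer genes entered. With the length trend removed, mutant against wild-type add-back gave 19 and 17, the tier difference 25 higher, and the wild-type tiers 24 and 19. Against low-tier ko alone, the wild-type add-back was higher for 54 genes and the mutant add-back higher for 1 and lower for 14. DESeq2 called 5 lower in mutant add-back against ko. Without the high-tier wild-type libraries, an alternative chosen after seeing the data, the tier difference was higher for 13. Except where the trend was removed or fewer genes entered, the cause was not tested.

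Deviations from the group means had r from -0.25 to 0.17 over 17 same-numbered pairs (median -0.02) and from -0.29 to 0.31 over 94 other pairs. Some pairs span depth tiers, and a group of 2 libraries gives mirrored values. Whether the numbers pair the libraries is therefore not settled. The replicate block gave 15 and 41 in ko against wild type and raised the higher count of mutant against wild-type add-back to 8; with this block the log2 change of Ubr4 was 0.029.

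Leaving out a library in turn gave 14 to 18 higher and 32 to 39 lower in ko against wild type, 28 to 39 and 9 to 14 in wild-type add-back against ko, 0 and 0 to 6 in mutant add-back against ko, and 3 to 5 and 24 to 49 in mutant against wild-type add-back. The ranges were 19 to 20 and 26 to 30 in the middle tier, 14 to 17 and 36 to 42 in the low tier, 6 to 8 and 8 to 12 for the tier difference, and 3 to 5 and 20 to 35 between the wild-type tiers. The lowest of 20 came without wild-type replicate 2. A lone library is assumed to vary like the others.

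Genes whose uncalled ko change near 0 switched sign were Macf1 (0.0067 with library size alone, 0.091 with the trend removed), Med13l (0.034 and 0.058, and 0.034 without the high tier), Gucy1a2 (0.023) and Adgrv1 (0.064) with the trend removed, and Lrp2 (-0.39) and Pdzd2 (-0.063) without the high tier. Leaving out a library moved Lrp2 over -0.213 to 0.267, Pdzd2 over -0.0267 to 0.132, Gucy1a2 over -0.192 to 0.0338, Med13l over -0.103 to 0.0249 and Macf1 over -0.133 to 0.0128. Depth limits genes near 1 CPM, and 2 mutant libraries limit every statement on that group.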
